A study of Homo sapiens with 18 samples.

Results

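HSPA6 and 9 further cytosolic heat shock genes were followed through 18 RNA sequencing libraries of OVCAR3 cells, an established adherent line of human high-grade serous ovarian carcinoma. The 10 genes were HSPA6, HSPA1A, HSPA1B, HSPA8, HSPB1, HSPH1, HSP90AA1, DNAJB1, DNAJA1 and BAG3, of 55765 gene symbols counted. HSPA6 was selected on its own values in this data set, namely its counts with non-specific IgA against IgG and against untreated cells of the first series, and the other 9 were added as genes of the same stress response. Values and counts of calls from those comparisons are therefore given only as description, and nothing is inferred from them. The study asked how these tumour cells respond when IgA binds to them and is carried through them by the polymeric immunoglobulin receptor.

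The 18 libraries fell into 6 groups of 3 replicates, in 2 series of 9 that were counted and normalised separately. In the first series OVCAR3 cells received human IgA or human IgG of no particular specificity, or no antibody. In the second series they received IgA against BDNF, a neurotrophin, or IgA against TSPAN7, a tetraspanin of the cell surface, or no antibody. All cells, untreated ones included, were unmodified OVCAR3 kept in RPMI medium with 2% serum, and the antibodies were used at 0.5 µg/mL for 24 h according to the sample descriptions, although another description of the same experiments names a shorter incubation. OVCAR3 is a single tumour cell line, and the study describes the first series as 3 experiments, whereas for the second nothing in the labels says that replicates were separate cultures, so that its p-values measure the spread between these libraries, which may be technical. Comparisons were made within a series only.

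Heat shock proteins are molecular chaperones that bind unfolded or damaged proteins and help them to refold or to be degraded. In the HSP70 cycle a J-domain protein such as DNAJB1 or DNAJA1 delivers the client and starts ATP hydrolysis, and a nucleotide exchange factor such as HSPH1 or BAG3 releases it. Some members, HSPA8 above all, are made at all times, whereas HSPA6, HSPA1A, HSPA1B and DNAJB1 are known for strong induction by the transcription factor HSF1, which binds heat shock elements in their promoters.

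The promoters are shown because the members differ in the arrangement of these elements. Sequences are from RefSeq (GRCh38.p14), 5′ to 3′ on the strand of the gene, from 250 bases before to 50 bases after the annotated start, and all 10 members matched the table, with 13 promoter entries between them. Capitals mark matches to the 2-unit element, which is GAANNTTC or TTCNNGAA, and to the 3-unit element, GAANNTTCNNGAA or TTCNNGAANNTTC, in which 2-unit matches overlap. Each 2-unit form is its own reverse complement, and both strands were searched. The windows are chr1:161524290-161524589 (plus strand) for HSPA6, chr6:31815293-31815592 (plus) for HSPA1A, chr6:31827488-31827787 (plus) for HSPA1B, chr19:14518348-14518647 (minus) for DNAJB1 and chr11:123062087-123062386 (minus) for HSPA8.
HSPA6: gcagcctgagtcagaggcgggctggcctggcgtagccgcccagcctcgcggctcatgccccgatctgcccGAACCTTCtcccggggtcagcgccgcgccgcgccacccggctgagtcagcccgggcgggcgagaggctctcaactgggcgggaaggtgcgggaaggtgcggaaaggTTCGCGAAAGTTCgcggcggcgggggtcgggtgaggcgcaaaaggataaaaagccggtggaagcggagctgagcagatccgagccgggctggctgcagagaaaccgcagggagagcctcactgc
HSPA1A: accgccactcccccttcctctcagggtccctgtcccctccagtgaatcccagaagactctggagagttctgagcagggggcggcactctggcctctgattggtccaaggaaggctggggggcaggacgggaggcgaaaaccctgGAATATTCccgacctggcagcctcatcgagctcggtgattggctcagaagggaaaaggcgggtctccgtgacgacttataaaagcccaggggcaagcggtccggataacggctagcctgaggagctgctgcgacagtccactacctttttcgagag
HSPA1B: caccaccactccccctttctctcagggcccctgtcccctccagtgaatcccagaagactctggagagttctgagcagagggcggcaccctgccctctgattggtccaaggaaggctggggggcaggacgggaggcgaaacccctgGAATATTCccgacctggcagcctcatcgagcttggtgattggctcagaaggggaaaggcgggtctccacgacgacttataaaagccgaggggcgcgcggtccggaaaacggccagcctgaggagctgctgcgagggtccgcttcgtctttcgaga
DNAJB1: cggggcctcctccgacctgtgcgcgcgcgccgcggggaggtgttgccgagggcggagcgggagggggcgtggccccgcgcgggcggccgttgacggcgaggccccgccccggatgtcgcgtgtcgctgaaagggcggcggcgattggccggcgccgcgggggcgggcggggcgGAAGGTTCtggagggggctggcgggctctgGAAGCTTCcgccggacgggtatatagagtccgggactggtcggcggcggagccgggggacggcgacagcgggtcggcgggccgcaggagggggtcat
HSPA8: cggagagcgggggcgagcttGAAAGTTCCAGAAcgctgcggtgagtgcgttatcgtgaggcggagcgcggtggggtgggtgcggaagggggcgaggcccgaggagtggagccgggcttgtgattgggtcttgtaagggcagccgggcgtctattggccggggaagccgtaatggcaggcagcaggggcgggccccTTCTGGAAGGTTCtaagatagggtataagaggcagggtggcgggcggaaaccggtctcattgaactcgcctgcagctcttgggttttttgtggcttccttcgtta

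HSPA6 held a 3-unit match from base -74 to base -62 before its start and a separate 2-unit match from -180 to -173. HSPA1A and HSPA1B each held a single 2-unit match, at -106 to -99 and at -105 to -98, with the same 8 letters in both. In DNAJB1 the window shown had 2-unit matches at -77 to -70 and -47 to -40. HSPA8, the constitutive HSP70, had a 3-unit match on either side of its window, at -230 to -218 and -55 to -43. Over the members, 8 of 10 held a 2-unit match and 4 of 10 a 3-unit match, namely HSPA6, HSPA8, HSP90AA1 and DNAJA1. Of 35116 promoters of the same length in the table, counted entry by entry, 13.5% held a 2-unit and 0.49% a 3-unit match. Members were counted by gene, with a match in any entry of the gene, so the units differ. HSPH1 and BAG3 had no match in the window searched, which says only that these letters are not there. A match is a description of letters, not a measured binding site.

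**Figure D1:**
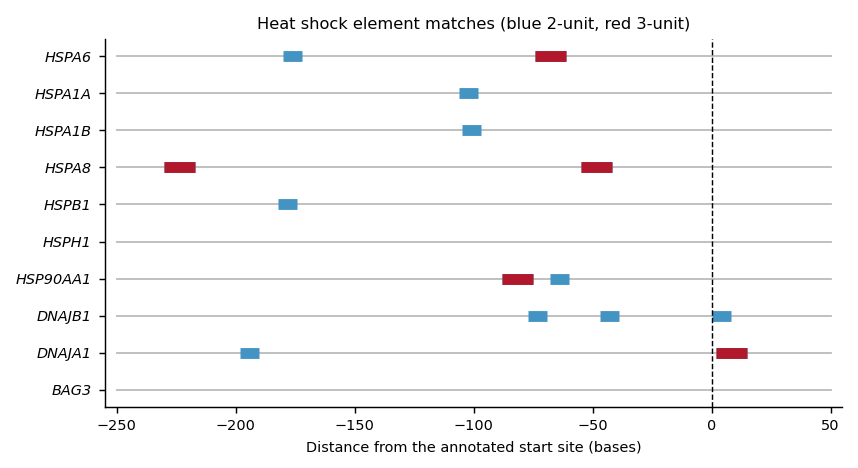
Heat shock element matches in the promoters of the 10 genes, by distance from the annotated start site in bases (x axis, 0 at the start), with blue for 2-unit and red for 3-unit matches, which cover the 2-unit matches inside them, and with the entries of a gene that has several starts drawn on the same line. Red marks are present for HSPA6, HSPA8, HSP90AA1 and DNAJA1, and HSPH1 and BAG3 have none.

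The libraries held between 27920733 and 47381836 counts, and 18012 genes were tested in the first series, against 18732 in the second. All 10 members passed the filter on low counts in both, HSPA6 in the second series at 8 to 23 counts in a library. Replicates were closer in the second series (common dispersion 0.00303) than in the first (0.0307). The 8 markers of ovarian carcinoma epithelium were all present, at a summed 4300 to 7130 CPM (counts scaled to the library size after TMM normalisation). Leukocyte markers summed to 2.13 CPM at most, with 1 of 6 at 0 in every library. The 3 libraries with non-specific IgA stood apart from the others of their series. They had 16062 to 16959 genes with at least 10 counts, against 17136 to 18031, and IgA replicate 3 drew 19.1% of its counts from the mitochondrial genome, against 5.75% to 8.32% in the other 8 libraries. The 5 fibroblast and endothelial markers summed to 22.9 to 37.5 CPM in these 3 libraries and to 18.8 to 25.7 in the IgG and untreated libraries. The part that these differences have in the values below was not tested beyond leaving libraries out.

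Read sharing limits how far the HSP70 rows can be told apart. HSPA6 lies on chromosome 1 (161494330 to 161496684, plus strand, GRCh37) as a single exon, near the pseudogene HSPA7, with which it shares 98.2% of aligned bases. Of the 75-base windows of the HSPA6 transcript, 35.3% occur unchanged in HSPA7. HSPA1A (chromosome 6, 31783320 to 31785723) and HSPA1B (31795515 to 31798031) are single-exon neighbours on the plus strand that are identical at 98.6% of aligned bases and code for nearly the same protein. Of their windows, 73.8% and 73.3% occur in another gene, for HSPA1A all of these in HSPA1B. HSPA6 is more distant, with 81.2% identity to HSPA1A and 73.4% to HSPA8, and shares no such window with either. The values were 1.92% for HSPA8, 9.39% for HSPB1 and 6.66% for HSP90AA1, and 0 for HSPH1, DNAJB1, DNAJA1 and BAG3. The split of counts between HSPA1A and HSPA1B is therefore uncertain, and they are also given as a sum. The paper states that uniquely mapped reads were counted, so reads from shared windows may be missing from the rows of genes that share them.

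In untreated cells HSPA6 was the least abundant member by far. Its level, in CPM per kilobase of the canonical transcript, was 0.138 ± 0.0109 (SD, n = 3) among first-series libraries, against 0.1745 ± 0.0236 among those of the second. HSPA1B came next, from 8.81 to 11.52 and from 11.2 to 13.3, and HSPA1A was at 19.1 ± 3.21 and 26.4 ± 1.504. The most abundant members were HSPB1, a small heat shock protein that holds unfolding proteins, at 1286 ± 30.8 and 931 ± 17.7, HSPA8 at 720.1 ± 134 and 949 ± 59.2, and HSP90AA1, the inducible cytosolic HSP90, at 656 ± 116.5 and 814 ± 23.2. Neighbours whose libraries overlapped in the first series were HSPA8 and HSP90AA1, DNAJB1 and BAG3, and HSPH1 and HSPA1A. In the second series they were HSPA8 and HSPB1, and BAG3 and HSPA1A. The middle of the order depends on the length used. DNAJB1 was at 30.4 and 41.5 per kilobase of its canonical transcript, the fifth highest, but at 8.33 and 11.4, the ninth highest, per kilobase of all its annotated exons. HSPA6 was last on either length. Neither length leaves out windows shared with other genes, which are 73.8% for HSPA1A, 73.3% for HSPA1B and 35.3% for HSPA6. The levels of these genes may therefore be understated, and the part this has in the order was not tested.

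HSPA6, the strictly inducible HSP70, was nearly silent in 15 of the 18 libraries and present in the 3 with non-specific IgA. Its counts there were 811, 395 and 487, which is 909, 395 and 769 normalised counts. With IgG it had 17, 14 and 0 counts, or 15.9, 12.8 and 0 normalised counts, where the count of 0 in IgG replicate 3 allows up to 3 counts or 3.29 normalised counts. Untreated cells of the first series had 10, 14 and 15 counts, or 10.4, 11.8 and 12.1 normalised counts. The lowest IgA library thus lay far above the highest of the other 6. The log2 fold change was 6.10 (SE 0.52) against IgG, a 68.7-fold difference, and 5.90 (SE 0.50) against untreated cells, a 59.5-fold difference, among the values that chose the gene. Leaving out each compared library in turn gave 5.58 to 6.62 and 5.64 to 6.18, and 6.01 and 5.81 without IgA replicate 3, the library with the high mitochondrial share. These are bulk libraries, in which more cells with the transcript and more transcript per cell cannot be told apart. The HSPA7 row had 1, 3 and 6 counts with non-specific IgA, which is 0.123%, 0.759% and 1.23% of the HSPA6 counts, and 0 in the other 15 libraries.

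HSPA6 stayed low throughout the second series. BDNF IgA libraries had 8, 14 and 11 counts, or 8.08, 14.0 and 10.45 normalised counts. With TSPAN7 IgA it had 8, 14 and 23 counts, or 7.99, 14.8 and 24.9 normalised counts. Untreated cells had 17, 15 and 22 counts, or 17.2, 15.2 and 19.9 normalised counts. The 3 BDNF IgA libraries lay below the 3 untreated ones, whereas TSPAN7 IgA libraries lay on both sides of them. Neither difference passed the test, and the log2 fold change was -0.68 for BDNF IgA (SE 0.44, edgeR adjusted p 0.391) and -0.15 for TSPAN7 IgA (SE 0.42, adjusted p 0.886). At this depth the SE of HSPA6 was several times that of the other members, which had SEs between 0.0481 and 0.0744 in these comparisons, so that a difference of the size seen here was not detectable.

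**Figure D2:**
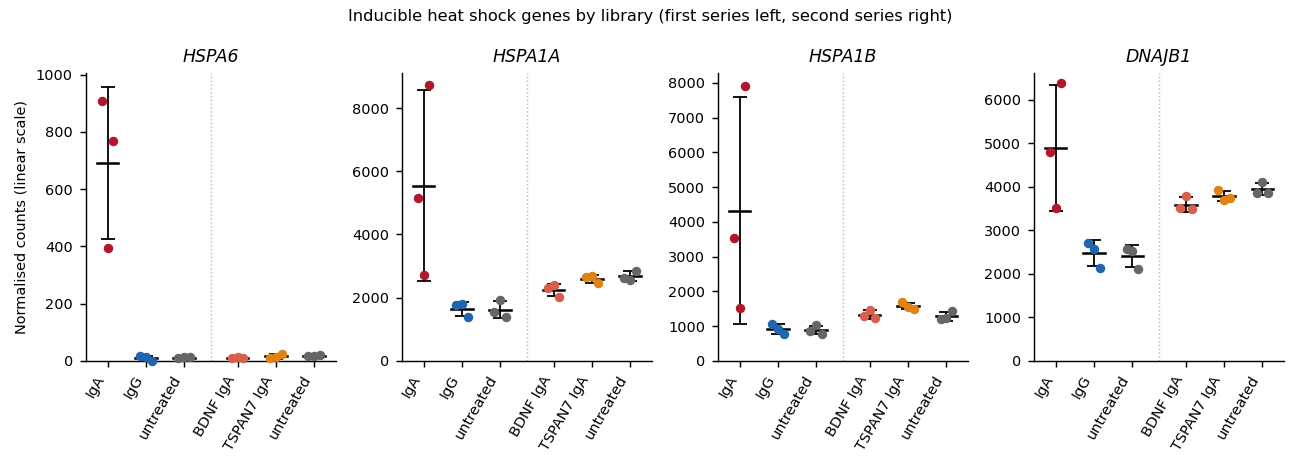
Normalised counts (y axis, linear from 0) of HSPA6, HSPA1A, HSPA1B and DNAJB1 in each library (points), with the mean (long bar) and SD (error bar) of 3 replicates, for the first series left of the dotted line and the second right of it. In HSPA6 the 3 non-specific IgA points lie between 395 and 909 and every other library at or under 24.9.

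HSPA1A and HSPA1B, the main stress-inducible HSP70 genes, were also higher with non-specific IgA, but with wide spread among its libraries. HSPA1A had 5152, 2729 and 8737 normalised counts with IgA, 1758, 1783 and 1398 with IgG and 1554, 1912 and 1379 in untreated cells. HSPA1B had 3526, 1527 and 7920 with IgA, 1057, 910.5 and 767.5 with IgG and 844, 1022 and 781.5 in untreated cells. For both genes IgA replicate 3 was highest and replicate 2 lowest, and the lowest IgA library was above every IgG and untreated library. The log2 fold change of HSPA1A was 1.75 (SE 0.30) against IgG and 1.78 against untreated cells, and that of HSPA1B was 2.24 (SE 0.41) and 2.29. Without IgA replicate 3 these were 1.26 and 1.28 for HSPA1A and 1.47 and 1.52 for HSPA1B, so that this library moved the fold of HSPA1B by over 1.5 times. Counted as a single row, the pair had a log2 fold change of 1.945 against IgG and 1.98 against untreated cells. HSPA6 reached 10.5%, 9.27% and 4.62% of the summed HSPA1A and HSPA1B counts in IgA replicates 1, 2 and 3, and at most 0.628% in any other library of either series.

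The ratio of HSPA1A to HSPA1B counts is given within the limits that shared sequence sets, and no comparison of it passed a test. With non-specific IgA it was 1.46, 1.79 and 1.10, lowest in replicate 3. With IgG it was 1.66, 1.96 and 1.82, and in untreated cells of that series 1.84, 1.87 and 1.76. Second-series libraries had 1.797, 1.63 and 1.63 with BDNF IgA, 1.56, 1.75 and 1.64 with TSPAN7 IgA and 2.19, 2.10 and 2.01 in untreated cells. All 6 antibody-treated libraries of the second series lay below the 3 untreated ones. The exact two-sided permutation test over libraries gave p = 0.1 for each of these antibodies against untreated cells, the smallest value that 3 against 3 allows (0.2 after adjustment over 4 comparisons), and p = 0.7 between them. IgG against untreated cells gave an exact permutation p of 0.9.

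**Figure D3:**
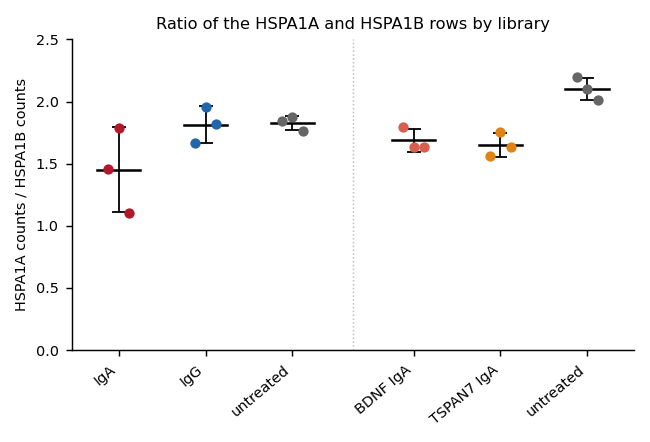
Ratio of HSPA1A to HSPA1B raw counts (y axis, from 0) in each library (points), with the mean (long bar) and SD (error bar) of 3 replicates by group, first series left of the dotted line. The antibody-treated libraries of the second series lie between 1.56 and 1.797 and the untreated ones between 2.01 and 2.19.

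Among the J-domain proteins the values with non-specific IgA went different ways. DNAJB1, which partners the inducible HSP70, had 4795, 3509 and 6396 normalised counts with IgA, 2708, 2573 and 2144 with IgG and 2564, 2534 and 2112 in untreated cells. As for HSPA1A and HSPA1B, IgA replicate 3 was highest and replicate 2 lowest, and the groups did not overlap. The log2 fold change was 0.98 (SE 0.18) against IgG and 1.03 (SE 0.18) against untreated cells, and 0.74 and 0.79 without IgA replicate 3. DNAJA1, the more abundant and constitutive J-domain protein, had 10110, 11430 and 7882 normalised counts with IgA, 12940, 12180 and 10980 with IgG and 12890, 13230 and 10330 in untreated cells. Its log2 fold changes were -0.30 and -0.31 (SE 0.14), its groups overlapped, and IgA replicate 3 was its lowest library.

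The HSP90 gene and the HSP110 gene were modestly and evenly higher with non-specific IgA. HSP90AA1 had 111900, 119200 and 107200 normalised counts with IgA, 87310, 77050 and 60410 with IgG and 80380, 83990 and 59450 in untreated cells. HSPH1, an HSP110 that recharges HSP70 with nucleotide, had 5914, 5807 and 5608 with IgA, 4710, 4163 and 3609 with IgG and 3777, 4213 and 3430 in untreated cells. In both genes all 3 IgA libraries lay above the other 6. The log2 fold changes were 0.59 and 0.60 (SE 0.15) for HSP90AA1 and 0.47 and 0.60 (SE 0.11) for HSPH1, against IgG and untreated cells. IgG replicate 3 and untreated replicate 3 carried part of this. Without the IgG library the values against IgG were 0.45 and 0.38, and without the untreated library those against untreated cells were 0.46 and 0.53.

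HSPA8 and BAG3 differed little, and HSPB1 was slightly higher with non-specific IgA. HSPA8 had 54120, 68440 and 54270 normalised counts with IgA, 68910, 57840 and 46390 with IgG and 62570, 64660 and 45160 in untreated cells, with log2 fold changes of 0.03 and 0.04. BAG3, which links HSP70 to selective autophagy, had 2506, 3015 and 2494 with IgA, 3065, 2740 and 2100 with IgG and 2821, 2796 and 2188 in untreated cells, with log2 fold changes of 0.02 and 0.04. HSPB1 had 48650, 40790 and 37770 with IgA, 35410, 38980 and 30020 with IgG and 34970, 36140 and 34510 in untreated cells, with log2 fold changes of 0.28 and 0.27 (SE 0.12). The IgA libraries of HSPB1 were all above the untreated ones and overlapped those with IgG.

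In all, 6 of 10 members had an adjusted p under 0.05 and a higher value with non-specific IgA against IgG, where 12.6% of all genes tested were higher and 11.6% lower. Against untreated cells it was again 6 of 10, beside 12.9% of all genes higher and 12.1% lower. The 6 were HSPA6, HSPA1A, HSPA1B, HSPH1, HSP90AA1 and DNAJB1 in both, and 0 members were lower. Leaving out libraries changed this for members of the 6 and for 2 further members. Against IgG, HSPH1 and HSP90AA1 were not called without IgG replicate 3. Against untreated cells, HSP90AA1 was not called without untreated replicate 3. DNAJA1 was called lower in both comparisons without IgA replicate 2 (log2 fold changes -0.42 and -0.44). HSPB1 was called higher in both without IgA replicate 3 (0.36 and 0.34). The comparisons share the IgA libraries. HSPA6 was selected on these comparisons, and the other members were chosen with earlier results of these data known. The counts are therefore a description. The median log2 fold change of the members was 0.53 against IgG and 0.60 against untreated cells, beside -0.01 for all genes in each. Scaling by library size alone shifted all genes by -0.23 and -0.21, with 19.4% of all calls higher in place of 51.9% against IgG and 23.3% in place of 51.4% against untreated cells. Under that scaling HSPH1 and HSP90AA1 were not called in either comparison, which left 4 members, and HSPA8 and BAG3 turned to -0.20 and -0.21 against IgG and to -0.16 each against untreated cells, while HSPA6 was at 5.84 and 5.67.

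No member was called between IgG and untreated cells. The spread used in this test came from all 9 libraries of the series, those with non-specific IgA included. A fit of only the 6 libraries compared also called 0 members. This comparison shares its libraries with those that selected HSPA6. Of the 10 members, 0 passed the edgeR test in either direction and 0 had an unadjusted p under 0.05, and DESeq2 also gave 0 at an unadjusted p under 0.05. Over all genes 0% were called higher and 0% lower, with 0.494% at an unadjusted p under 0.05. The groups of all 10 members overlapped, where 6.75% of all genes had groups that did not, and the log2 fold changes ran from -0.21 for HSPA6, which had the count of 0 in IgG replicate 3, to 0.13 for HSPH1, with a median of 0.01.

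In several groups most members had their lowest or highest value in the same library. Of the 10 members, 10 were lowest in IgG replicate 3 among the IgG libraries, and 9 were lowest in untreated replicate 3 among the untreated libraries of the first series, all but HSPA6. In the second series 8 were lowest in BDNF IgA replicate 3 and 9 highest in BDNF IgA replicate 2, with HSPB1 the exception in each case and HSPA6 also in the former. The members of a library share its RNA and its scaling, so that these are not 10 separate observations. The share of all genes lowest or highest in the same libraries was not computed. Whether the pattern is particular to the members is therefore not known. With non-specific IgA the order split. HSPA1A, HSPA1B and DNAJB1 were highest in replicate 3 and lowest in replicate 2, whereas HSPA8, HSP90AA1, DNAJA1 and BAG3 were highest in replicate 2.

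**Figure D4:**
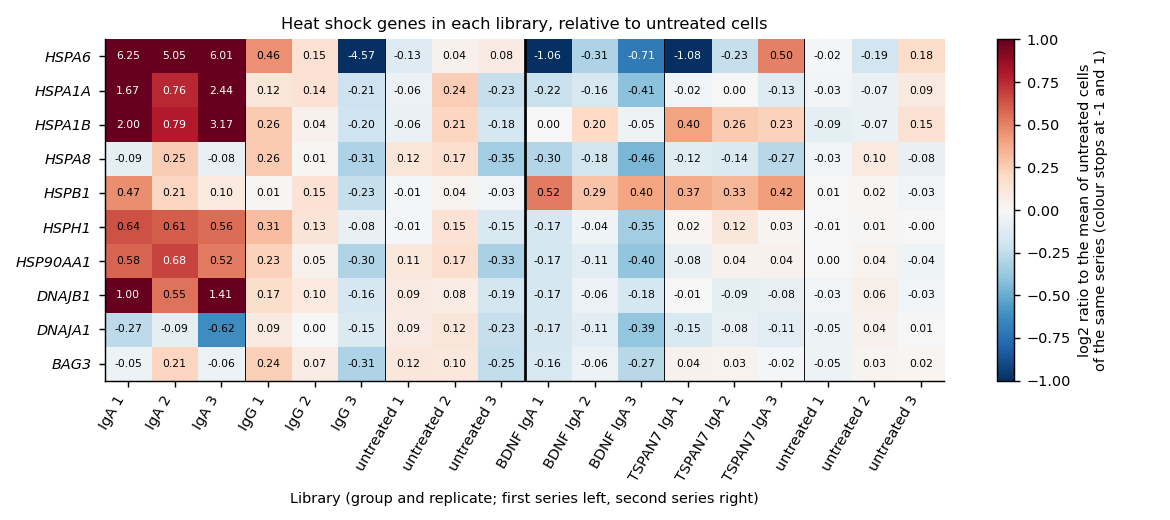
Log2 ratio of each member in each library (columns, group and replicate) to the mean of untreated cells of its series, computed on normalised counts with 0.5 added, with the first series left of the thick line. Red is above and blue below untreated cells, with the colour ending at -1 and 1 and the ratio printed in each cell. HSPA6 stands between 5.05 and 6.25 in the 3 non-specific IgA libraries, and HSPB1 is above 0 in all 6 antibody-treated libraries of the second series while HSPA8 is below 0 in all 6.

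With BDNF IgA 4 of the 10 members fell, namely HSPA8, HSPA1A, HSP90AA1 and DNAJA1, and 1 rose, HSPB1 (edgeR quasi-likelihood test, two-sided, adjusted p under 0.05), beside 3.18% of all genes lower and 4.49% higher. All BDNF IgA libraries lay below all untreated ones for 8 members and above them for 1, which was the case for 12% and 12.8% of all genes, and the median log2 fold change was -0.20, beside 0.00223 for all genes. HSPA8 fell from 89450, 97360 and 86340 to 74190, 80270 and 66280 normalised counts, or -0.31 on the log2 scale with an SE of 0.06 (edgeR adjusted p 0.00283). HSPB1 rose from 30820, 31140 and 30010 to 43980, 37380 and 40400 (log2 fold change 0.40, SE 0.05, edgeR adjusted p 1.72e-05). These were the members whose calls held whichever single library was left out.

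The other falls with BDNF IgA were smaller, and their calls were lost without single libraries. HSPA1A had 2305, 2407 and 2020 normalised counts against 2635, 2565 and 2858 in untreated cells (log2 fold change -0.26, edgeR adjusted p 0.0105). HSP90AA1 had 98700, 103400 and 84700 against 111700, 114400 and 108100 (-0.22, adjusted p 0.0204), and DNAJA1 had 14890, 15460 and 12780 against 16180, 17220 and 16820 (-0.22, adjusted p 0.0153). In each gene BDNF IgA replicate 3 was the lowest library, and in each the BDNF IgA libraries all lay below the untreated ones. Without it the log2 fold change was -0.19 for HSPA1A (adjusted p 0.0731), -0.14 for HSP90AA1 (0.107) and -0.14 for DNAJA1 (0.0867). HSPA1A also lost its call without untreated replicate 3 (-0.21, adjusted p 0.0737). HSP90AA1 lost it without untreated replicate 1 (-0.22, 0.0757) or 2 (-0.20, 0.0973), and DNAJA1 without untreated replicate 2 (-0.20, 0.0856) or 3 (-0.22, 0.0529), at nearly the same log2 fold changes as with all libraries. The number of members called ran from 2 without BDNF IgA replicate 3 to 8 without BDNF IgA replicate 2, and was 3 without untreated replicate 2 or 3. HSPH1, DNAJB1 and BAG3 had log2 fold changes of -0.18, -0.14 and -0.16 (adjusted p 0.0555, 0.0909 and 0.0647), with all their BDNF IgA libraries below the untreated ones. By DESeq2 HSPH1 and BAG3 passed (adjusted p 0.0331 and 0.0481) and DNAJB1 did not. HSPA1B had 1282, 1474 and 1236 against 1200, 1222 and 1420 (0.05, adjusted p 0.735). As a single row HSPA1A and HSPA1B gave -0.15 (adjusted p 0.134). A fall of HSPA1A alone and an effect of how shared reads were assigned were not told apart.

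With TSPAN7 IgA the members as a whole stayed near untreated cells. Of the 10, 2 rose and 0 fell, beside 4.46% of all genes higher and 4.08% lower, and the median log2 fold change was -0.02. All TSPAN7 IgA libraries lay above all untreated ones for 3 members and below them for 2, beside 14.4% and 14% of all genes. HSPB1 rose again, to 39640, 38590 and 41010 normalised counts (log2 fold change 0.37, SE 0.05, edgeR adjusted p 3.91e-05), and kept its call without any single library. HSPA1B rose to 1689, 1534 and 1505 (0.30, SE 0.07, adjusted p 0.0134), above its 3 untreated libraries. That call was lost without TSPAN7 IgA replicate 1 (log2 fold change 0.24, adjusted p 0.0822), untreated replicate 1 (0.26, 0.0826) or untreated replicate 2 (0.27, 0.0732), and the summed HSPA1A and HSPA1B row gave 0.07 (adjusted p 0.525). HSPA1A itself had 2641, 2688 and 2460 (-0.05, adjusted p 0.702). HSPA8, at 83910, 82590 and 75310, lay below untreated cells in all 3 libraries (-0.18, SE 0.06) without passing the edgeR test (adjusted p 0.0791), but passed by DESeq2 (adjusted p 0.0464) and in an edgeR fit of only the 6 libraries compared (0.00888). HSP90AA1 had 105600, 114700 and 114500 (0.00, adjusted p 0.986), and the other members, HSPA6 included, had adjusted p between 0.226 and 0.893. Among them DNAJA1 lay below untreated cells in all 3 libraries (-0.11, edgeR adjusted p 0.226). It passed in the edgeR fit of only the 6 libraries compared (-0.12, adjusted p 0.0463).

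Compared directly, cells with TSPAN7 IgA had higher values of several members than cells with BDNF IgA. Of the 10, 5 were higher and 0 lower by the edgeR test, beside 3.42% of all genes higher and 4.5% lower. This comparison shares its libraries with those against untreated cells. The 5 were HSPH1 (log2 fold change 0.24, adjusted p 0.0126), HSP90AA1 (0.22, adjusted p 0.0201), HSPA1A (0.21, adjusted p 0.0386), BAG3 (0.18, adjusted p 0.0398) and HSPA1B (0.24, adjusted p 0.0455), none of them with overlap between the groups, where 11.5% of all genes had all TSPAN7 IgA libraries above all BDNF IgA ones. HSPH1 had 7297, 7805 and 7354 normalised counts with TSPAN7 IgA and 6399, 6998 and 5662 with BDNF IgA, and BAG3 had 3101, 3083 and 2965 against 2689, 2897 and 2490. The summed HSPA1A and HSPA1B row was higher as well (0.22, adjusted p 0.0251). Calls here lay close to the threshold. Without BDNF IgA replicate 3 or TSPAN7 IgA replicate 2 the number was 0, without BDNF IgA replicate 1, TSPAN7 IgA replicate 1 or TSPAN7 IgA replicate 3 it was 2, and without BDNF IgA replicate 2 it was 7. HSPB1, which rose with both antibodies, did not pass the test between them (log2 fold change -0.03, SE 0.05, adjusted p 0.785).

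**Figure D5:**
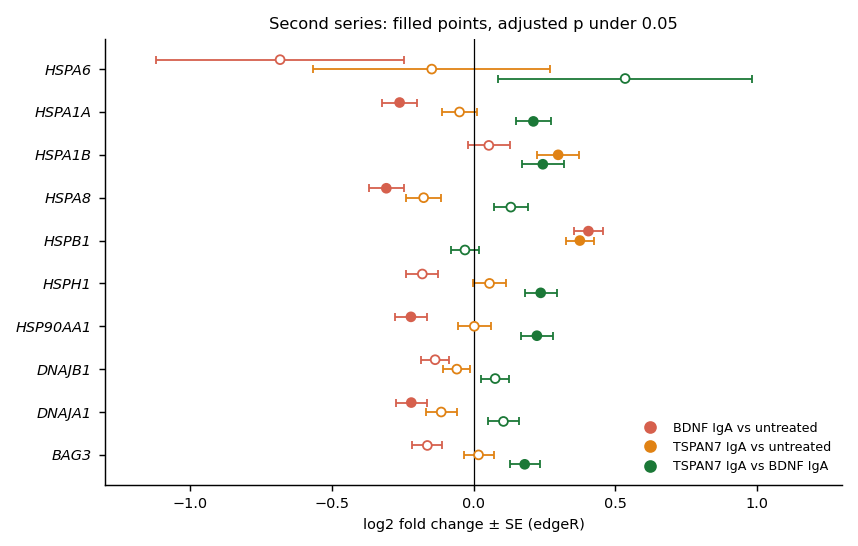
Log2 fold change (x axis) with its SE (bars) of each member in the 3 comparisons of the second series, from the edgeR fit, with filled points for an adjusted p under 0.05. HSPB1 is at 0.40 and 0.37 against untreated cells for BDNF IgA and TSPAN7 IgA, HSPA8 at -0.31 and -0.18, and the bars of HSPA6 are several times wider than the others.

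A list of 62 further chaperone genes was examined, of which 54 passed the filter on low counts in each series. With non-specific IgA, 19 were higher and 2 lower against IgG (beside the 12.6% and 11.6% of all genes), and 16 and 3 against untreated cells, as a description. The medians were 0.26 and 0.28. The largest differences were in chaperones of the endoplasmic reticulum and a small heat shock protein. HSPA5, the HSP70 of the endoplasmic reticulum, had 112100, 84410 and 122400 normalised counts with IgA and 17630 to 20900 in the other 6 libraries, a log2 fold change of 2.47 (SE 0.14) against IgG. DNAJB9, its J-domain partner, was at 1.16, and CRYAB, a small heat shock protein, at 1.45. Of 9 chaperones of the endoplasmic reticulum and mitochondria 5 were higher against IgG, of 7 other J-domain proteins 5, of 11 genes of HSP90 and its cochaperones 4, of 8 TRiC chaperonin subunits 3, and of 6 other cytosolic HSP70 and HSP110 genes 0. Of 7 exchange and degradation cofactors of HSP70, 0 were higher and 2 lower, which were, named after their values were seen, BAG1 and BAG5. HSP90AB1, the constitutive HSP90, had 63830, 55200 and 56310 normalised counts with IgA, 43530, 38580 and 29760 with IgG and 37330, 38960 and 29790 in untreated cells, and a log2 fold change of 0.65 against IgG. HSPA1L, a testis HSP70 that lies beside HSPA1A, had 11.2, 17.99 and 22.1 with IgA, below all IgG and untreated libraries, which ran from 23.1 to 56.5. IgG against untreated cells had 0 of 54 in either direction.

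The same list was examined in the second series. With BDNF IgA 1 gene rose and 5 fell of 54, which is 1.85% and 9.26%, beside 4.49% and 3.18% of all genes. CRYAB rose from 266, 276 and 286 to 514, 472.5 and 391 normalised counts (log2 fold change 0.73, SE 0.11, edgeR adjusted p 3.33e-04). The falls included CHORDC1, an HSP90 cochaperone (-0.34, adjusted p 0.00297), and BAG2, an HSP70 cofactor (-0.30, adjusted p 0.0124), and the others, named after their values were seen, were PTGES3, DNAJB6 and HSPA2. With TSPAN7 IgA 2 rose and 1 fell, which is 3.7% and 1.85%, beside 4.46% and 4.08% of all genes. CRYAB reached 673, 679 and 514 (1.17, SE 0.11, adjusted p 3.96e-07), TRAP1, the mitochondrial HSP90, rose by 0.18 (adjusted p 0.0116) and BAG1 fell by 0.20 on the log2 scale (adjusted p 0.00831). CRYAB and HSPB1, both small heat shock proteins, were thus above all 3 untreated libraries in all 6 antibody-treated ones. HSPB6, the other small heat shock protein tested and named after its values were seen, overlapped untreated cells with both antibodies (log2 fold changes 0.03 and -0.32, adjusted p 0.972 and 0.612). Between the antibodies 7 genes were higher with TSPAN7 IgA (13%, beside 3.42% of all genes) and 0 lower, with CRYAB (0.44, adjusted p 0.0141), CHORDC1 (0.29, adjusted p 0.0115) and HSPE1, a mitochondrial cochaperonin (0.27, adjusted p 0.0435), at the top. The remaining counts by list were 1 or 0 in each direction in each comparison of this series, apart from HSP90 and its cochaperones, with 2 of 11 lower for BDNF IgA and 3 of 11 higher for TSPAN7 IgA against BDNF IgA, and the chaperones of the endoplasmic reticulum and mitochondria, with 2 of 9 higher in the latter.

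HSF1, the factor that binds heat shock elements, was not called in any comparison. It had 2569 to 2702 normalised counts with non-specific IgA, 2481 to 2681 with IgG and 2314 to 2559 in untreated cells, with log2 fold changes of 0.01 against IgG and 0.10 against untreated cells. With each antibody of the second series its log2 fold change was 0.13 (edgeR adjusted p 0.113 for BDNF IgA and 0.120 for TSPAN7 IgA). A transcript level does not show the activity of this factor, which is controlled largely after translation. HSF2, named after its values were seen, had log2 fold changes of 0.45 and 0.48 with non-specific IgA.

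The genes that followed HSPA6 most closely over the 9 libraries of the first series were not heat shock genes. The measure was the root mean square difference of log2 CPM, each gene centred on untreated cells, over 13944 genes. Closest was CCL20, a chemokine, at 0.81, and after it PTX3, a soluble pattern recognition protein, at 0.89, the cytokine TNF at 0.92, the activin subunit INHBA at 1.09 and IL8, a neutrophil chemokine, at 1.10. Their log2 fold changes against IgG were 6.40, 5.14, 5.09, 4.12 and 6.88. Of the members, HSPA1B ranked at 108, HSPA1A at 174 and DNAJB1 at 548 of those genes, and DNAJA1, which was lower in IgA replicate 3, ranked at 10148. The distance favours genes with a large difference between the same 3 IgA libraries and the other 6, and it is a description of these values.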

How the data were processed

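RNA of OVCAR3 cells was purified with RNeasy Plus micro kits and made into libraries with the Ovation Human FFPE RNA-Seq kit. The deposited values are raw counts per gene, which the authors made by trimming with cutadapt, aligning with STAR to GRCh37 and counting over GENCODE genes. The paper names featureCounts, whereas the submitters' processing notes list HTSeq 0.6.1 with bcl2fastq 2.20.0.422 and cutadapt 1.8.1. The strand setting is not given in the sources used here. Groups were taken from the sample labels.

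The 2 tables, of 9 libraries each, were analysed separately. In the second, 2055 exactly repeated rows (1.99% to 2.46% of counts) were removed, leaving 55765 symbols as in the first. Genes passing filterByExpr were fitted over all 9 libraries with TMM scaling and the quasi-likelihood F test of edgeR 4.0.16 in R 4.3.3, two-sided, with Benjamini-Hochberg adjustment over all genes of a comparison and a call at an adjusted p under 0.05. The SE is the log2 fold change over the root of F. Normalised counts are scaled to the mean effective library size and given to 4 significant digits. In simulated data the fit recovered 96.5% of 200 changed genes in the first table (17551 genes) and 100% in the second (18393 genes). The changes were set at a log2 fold change of 1.5 in genes with a mean of at least 50 normalised counts. Of the calls, 4.926% and 5.213% were false. Recovery of changes as small as those of the members in the second series was not simulated, nor at counts as low as those of HSPA6 there. Alternatives were DESeq2 1.42.0, other scalings and filters, a replicate block and leaving out libraries. Named genes were all members, HSF1, paralogs, up to 3 called genes of the chaperone list with the largest change and a mean of at least 50 normalised counts, and the 5 genes nearest to HSPA6. Promoters are from RefSeq (GRCh38.p14) and gene positions and transcripts from GENCODE (GRCh37). The members and lists were chosen with earlier results of these data known. Intervals of a count of 0 cover counting error only.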

Additional observations from a re-analysis of the deposited data

Results flagged for a closer look

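In 5 members every non-specific IgA library lay above the untreated libraries of the first series while every BDNF IgA library lay below those of the second. The same pattern was present in 432 of 17548 genes tested in both series (2.46%). The log2 fold change against untreated cells was greater in the former by 6.58 for HSPA6, 2.04 for HSPA1A, 1.16 for DNAJB1, 0.817 for HSP90AA1 and 0.782 for HSPH1. The difference was not tested, since the series were counted and normalised separately, and antibody and series cannot be told apart. HSPA6 was selected on the first of these contrasts. The values of HSPA6, DNAJB1 and HSPH1 with BDNF IgA did not pass the edgeR test on their own.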

How the results depend on the processing

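Of 876 values of members over all alternatives, 760 kept their sign and their side of the threshold, 45 changed sign, 48 no longer passed and 23 newly passed, and the cause was not tested. An adjusted p under 0.01 left 2 members called for BDNF IgA against untreated cells, 1 for TSPAN7 IgA and 0 between the antibodies. TSPAN7 IgA against BDNF IgA had 2 under scaling by library size alone, 2 with only the 6 libraries compared and 2 with the repeated rows kept, and TSPAN7 IgA against untreated cells had 4 with only the 6 libraries. Leaving out a library gave 2 to 8 members for BDNF IgA, 1 to 2 for TSPAN7 IgA and 0 to 7 between them, 4 to 7 for non-specific IgA against IgG and 5 to 7 against untreated cells. The number of calls over all genes changed with the library left out as well.

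All 45 sign changes were of values that passed in neither fit, and 6 of them were in each non-specific IgA comparison. For IgG against untreated cells, library size alone gave 0.010 for HSPB1 and 0.012 for DNAJA1. Leaving out a library there gave -0.73 to 0.32 for HSPA6, -0.0775 to 0.17 for HSPA1A, -0.0714 to 0.17 for HSPA1B, -0.14 to 0.14 for HSPA8, -0.11 to 0.0798 for HSPB1, -0.14 to 0.14 for HSP90AA1, -0.0455 to 0.14 for DNAJB1, -0.12 to 0.0523 for DNAJA1 and -0.10 to 0.16 for BAG3. It gave -0.029 to 0.14 for HSPA1B with BDNF IgA, -0.62 to 0.18 for HSPA6, -0.0179 to 0.0402 for HSP90AA1 and -0.0051 to 0.0386 for BAG3 with TSPAN7 IgA, and -0.0847 to 0.0314 for HSPB1 and -0.0601 to 0.0453 for HSF1 between them. HSF1 between the antibodies was 4.99e-05 with DESeq2 size factors and HSP90AA1 with TSPAN7 IgA was -0.0016 with the repeated rows kept. HSPA1A and HSPA1B as a single row, chosen after seeing the data, gave -0.15 with BDNF IgA and 0.0726 with TSPAN7 IgA, against 0.05 for HSPA1B and -0.05 for HSPA1A alone.

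Whether replicate numbers pair the libraries is not settled. Deviations of same-numbered libraries correlated at -0.0686 to 0.247, highest for replicate 3 of IgG and untreated cells. For TSPAN7 IgA and untreated cells each library correlated best with the one of the same number, whereas for non-specific IgA and IgG none did. With a replicate block 7 members were called in each non-specific IgA comparison, 6 higher and DNAJA1 lower (-0.31 in each), 0 for IgG, 7 for BDNF IgA (HSPH1 and BAG3 added, adjusted p 0.0221 and 0.047), 3 for TSPAN7 IgA (HSPA8 added, lower, 0.0124) and 5 between the antibodies. DESeq2 called 6, 6, 0, 7, 3 and 5 in that order. At 0 to 23 counts outside the non-specific IgA libraries, depth limits what can be said of HSPA6 in the second series.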
